A study of Mus musculus with 24 samples.

Results

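C2C12 is an established clonal line of mouse myoblasts whose cells leave the cycle in low serum and join into multinucleated myotubes. The comparison described here sets myotubes kept for 72 h in medium with 100 µM dexamethasone, harvested at day 10, against the day 7 myotubes from which the treatment started, and asks which genes ended above or below their starting level. It uses 8 of the 24 messenger RNA libraries of the series, 4 after dexamethasone and 4 at day 7, taken by their group labels. Wild-type C2C12 cells gave all of the libraries, and all of the myotube groups stood in 2% serum. Beside the comparison stand dexamethasone myotubes at 24 h (day 8) and vehicle myotubes at 72 h (day 10, 1% ethanol), with 4 libraries each. Day 0 myoblasts, in 10% serum, and vehicle myotubes at 24 h (day 8, 1% ethanol), also with 4 libraries each, appear only where named. Ethanol is named in the labels for the vehicle medium only. In the comparison of dexamethasone 72 h with day 7, the added days in culture and dexamethasone cannot be told apart. The vehicle change over the same days is therefore given beside it, with the direct difference of dexamethasone 72 h from vehicle 72 h, which tests one change against the other. Both changes share the day 7 libraries.

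Dexamethasone is a synthetic glucocorticoid that binds the glucocorticoid receptor (Nr3c1), a nuclear receptor that then switches some genes on and represses others. In skeletal muscle, glucocorticoids are known to lower fibre mass: FoxO factors and the ubiquitin ligases MuRF1 (Trim63) and atrogin-1 (Fbxo32) mark protein breakdown, and anabolic signalling by IGF-1 and mTOR is held back. In other cell types they are known as inhibitors of cytokine and collagen genes. C2C12 cultures also keep mononucleated cells that did not fuse, often called reserve cells. Levels here are averages over both kinds of cell, and fewer cells of a type and less RNA per cell cannot be told apart in such bulk libraries.

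Levels below are in TPM, a unit of transcript abundance that sums to 1000000 in each library and corrects for transcript length, and ± is the SD over the 4 libraries of a group. Tests used limma on the deposited normalised table on its log2 scale, fitted over 16257 genes and all 24 libraries, and a gene is called where its Benjamini-Hochberg adjusted p is under 0.05. Fold changes are ratios of mean TPM, given only where the lower mean is at least 0.5 TPM. Log2 differences come from the normalised table, in which differences are smaller: the slope of its differences on those of log2 TPM was 0.67. Whether the replicates came from separate cultures is not stated in the labels, and p-values here reflect only the spread among libraries, which may be technical. Read depth is unknown from these files, and 12680 to 13030 genes reached 1 TPM in each of the 8 libraries.

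Replicates correlated at r = 0.9886 to 0.9967 after dexamethasone and 0.9926 to 0.9966 at day 7, across the genes of the normalised table. Replicate 1 of the dexamethasone 72 h group stood apart. In 17 genes with at least 5 TPM in all 4 vehicle 72 h libraries, the other 3 dexamethasone libraries were under 1 TPM while replicate 1 held a median of 22.5% of the vehicle mean. Replicate 1 of the vehicle group showed the converse in 11 genes, at a median of 18.1% of the dexamethasone mean, and each of the other 6 libraries at 72 h had 2 or 3 such genes with medians of at most 3.29%. Whether these replicate 1 libraries hold RNA of the other group was not tested. Values without dexamethasone replicate 1 are given where leaving it out moved a fold change by over 1.5 times or changed a call. Myotube markers summed to 11843 to 15828 TPM after dexamethasone, against 6845 to 7927 TPM at day 7. In vehicle 72 h myotubes they summed to 9582 to 14633 TPM, a range that overlaps that after dexamethasone. In each of the 8 libraries the 5 endothelial markers were under 1 TPM. Of 5 macrophage markers Ptprc, Adgre1 and Csf1r were under 1 TPM, and the list summed to 3.8 to 5.13 TPM after dexamethasone, against 2.26 to 3.15 TPM at day 7.

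Dexamethasone myotubes at 72 h differed from day 7 in 7761 genes. Of the 16257 genes tested, 3874 ended higher (23.8%) and 3887 lower (23.9%), and 1125 of those called moved by at least 1 on the log2 scale. Without dexamethasone replicate 1 the counts were 3950 higher and 3932 lower, and 7178 genes were called in the same direction both ways. In vehicle myotubes over the same days, 1426 genes rose (8.77%) and 1678 fell (10.3%). The split depended on the table: from TPM values, 1559 genes rose and 987 fell in vehicle, so that the share of rises was 61.2% there and 45.9% in the normalised table. Single libraries also moved the vehicle counts, to 590 rises and 617 falls without vehicle replicate 3, 798 and 907 without day 7 replicate 2, and 870 and 998 without day 7 replicate 4. Dexamethasone 72 h stood above vehicle 72 h in 2466 genes (15.2%) and below it in 2465 (15.2%), in 2184 and 2285 without vehicle replicate 1, and in 2452 and 2546 without both replicate 1 libraries. Against 24 h of dexamethasone, 2320 genes were higher at 72 h (14.3%) and 2312 were lower (14.2%). The TPM libraries of dexamethasone 72 h and day 7 did not overlap in 6019 of the 16257 genes (37%), of which 5541 were also called. The median gene differed by 0 on the normalised scale and by 0.09 on the log2 TPM scale.

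**Figure D1:**
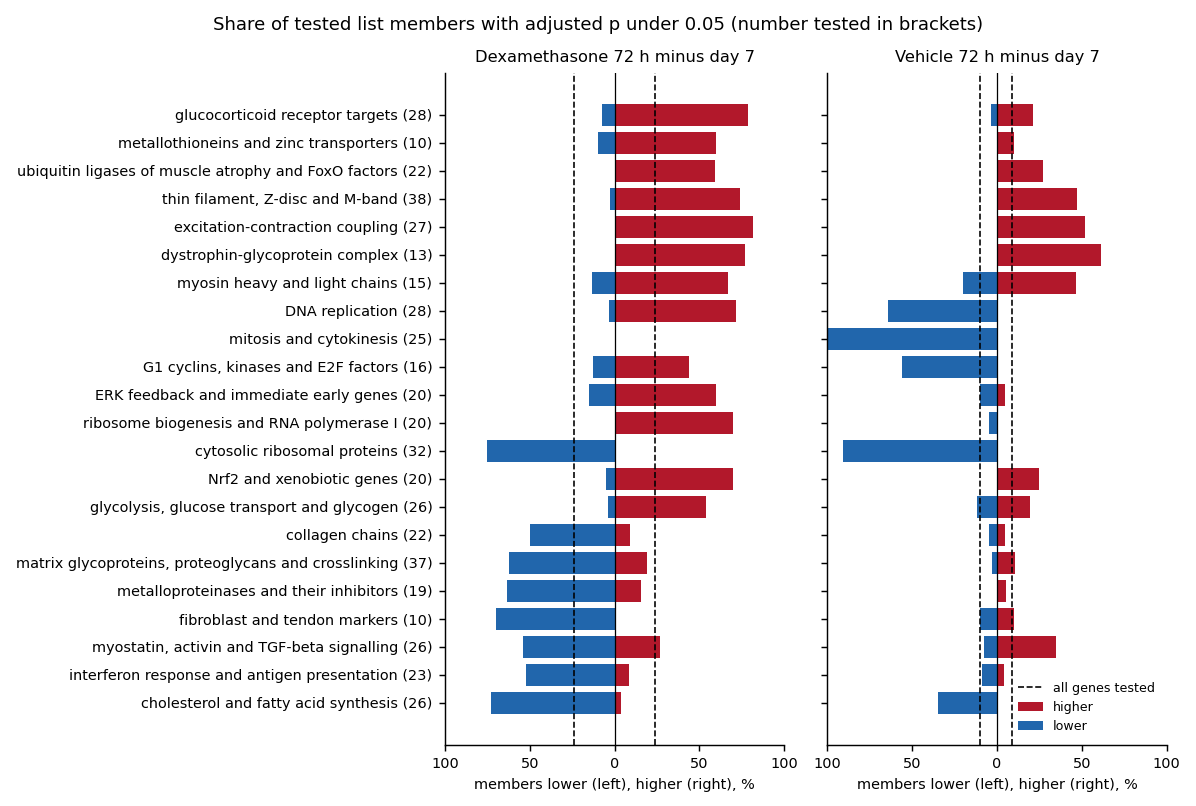
Each line is a gene list and its bar the percentage of tested members called higher (right) or lower (left) than at day 7, with the number tested in brackets. The left panel shows dexamethasone 72 h and the right panel vehicle 72 h. Dashed lines mark the shares over all 16257 genes. These are 23.8% higher and 23.9% lower in the left panel, and 8.77% and 10.3% in the right. In the left panel excitation-contraction coupling (81.5% higher) and glucocorticoid receptor targets (78.6% higher) lie far right. Cytosolic ribosomal proteins (75.0% lower) and cholesterol and fatty acid synthesis (73.1% lower) lie far left there.

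Classical glucocorticoid receptor targets ended well above the starting level. Of 29 listed genes 28 were tested, and 22 rose and 2 fell, with a median log2 difference of 1.37, while the vehicle change gave 6 rises and 1 fall, and 3 rises without vehicle replicate 3. Fkbp5, a co-chaperone that feeds back on the receptor, stood at 172, 119, 181 and 122 TPM after dexamethasone, against 9.11, 9.95, 12.4 and 11.3 TPM at day 7. Tsc22d3, which encodes the anti-inflammatory protein GILZ, stood at 466, 489.8, 466 and 420.1 TPM, against 40.8, 37.1, 40.3 and 47.5 TPM at day 7. The groups lay far apart in both genes, the lowest treated library being many times the highest day 7 library. Fkbp5 was 13.9-fold higher (log2 difference 2.57 ± 0.18 (SE), adjusted p = 1.63e-09) and Tsc22d3 11.1-fold higher (2.36 ± 0.13, adjusted p = 8.02e-11), and vehicle myotubes held 15.7 ± 9.48 TPM of Fkbp5 and 68.9 ± 26.2 TPM of Tsc22d3. Without vehicle replicate 1 the vehicle means were 11.2 ± 3.64 TPM of Fkbp5 and 55.8 ± 2.25 TPM of Tsc22d3 (SD, n = 3). Tsc22d3 was called higher in vehicle than at day 7 as well (adjusted p = 0.0481, and up to 0.184 with 1 library left out). The clock gene Per1, also a direct receptor target, rose 4.72-fold (adjusted p = 1.97e-09), and it was also called higher in vehicle, at 12 ± 1.51 TPM (adjusted p = 0.00346). Glul, glutamine synthetase, rose 4.63-fold (adjusted p = 3.92e-08), with 98.6 ± 26.4 TPM in vehicle (adjusted p = 0.0331 against day 7, and up to 0.119 with 1 library left out). Zbtb16, the transcription factor PLZF, was listed at 0 in the 4 day 7 libraries and held 2.54, 2.54, 3.74 and 2.35 TPM after dexamethasone (adjusted p = 1.12e-08). The receptor itself did not pass against day 7: Nr3c1 stood at 26.3, 23.2, 24.3 and 20.6 TPM, against 20.6, 21, 26.8 and 26.2 TPM at day 7 (adjusted p = 0.614), and in vehicle it was called higher, at 37.9 ± 7.05 TPM (adjusted p = 0.00603). Nr3c1 was lower after dexamethasone than in vehicle (adjusted p = 0.000496).

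The treated libraries were not alike in the height of some targets. Klf15, a Krüppel-like factor that drives amino acid breakdown in muscle, stood at 7.82 and 8.36 TPM in replicates 1 and 3 but at 2.26 and 2.95 TPM in replicates 2 and 4, against 0.115 to 0.45 TPM at day 7 (adjusted p = 1e-06). It also rose in vehicle, to 1.36 ± 0.242 TPM (adjusted p = 0.00821), and dexamethasone 72 h stood above vehicle (adjusted p = 0.00218). Serpina3n, a protease inhibitor, had the largest log2 difference among named genes with a mean of at least 5 TPM and groups that did not overlap, at 7.06 ± 0.84 (SE, adjusted p = 1.11e-06). It held 200 and 231 TPM in replicates 1 and 3 and 35.5 and 40.6 TPM in replicates 2 and 4, against 0.0171 to 0.0472 TPM at day 7. Serpina3m, a closely similar copy whose reads may be shared with it, was listed at 0 at day 7 and held 4.86 to 38.6 TPM after dexamethasone (adjusted p = 1.73e-06). Over the whole target list, the median log2 difference of each treated library from the day 7 mean was 1.76, 1.19, 1.6 and 1.11 in replicates 1 to 4.

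The other 6 genes of the 8 with the largest rises were almost silent at the start. Fabp4, a fatty acid binding protein best known from adipocytes, held 59.3, 72.7, 84.8 and 83.9 TPM after dexamethasone, against 0.183, 0.1, 0.0377 and 0.117 TPM at day 7 (adjusted p = 6.32e-09). S100a8, a calcium-binding protein of the calprotectin complex, held 14.4, 27.2, 26.1 and 25 TPM, against at most 0.199 TPM at day 7 (adjusted p = 2e-09). The groups were fully apart in both genes, which was a condition for the choice of the 8. Slco4a1, an organic anion transporter, held 2.29, 6.99, 12.2 and 8.24 TPM, against at most 0.0334 TPM at day 7 (adjusted p = 5.46e-08). Serpinb2, the plasminogen activator inhibitor PAI-2, held 31.8, 23.5, 6.94 and 12.9 TPM, against at most 0.121 TPM at day 7 (adjusted p = 1.7e-07). All treated libraries of both genes lay above the day 7 libraries, by the same condition. Mettl21e, a methyltransferase of the Mettl21 family, and Sult1a1, a phenol sulfotransferase, were listed at 0 in the 4 day 7 libraries. After dexamethasone Mettl21e held 26.6, 3.78, 8.43 and 4.22 TPM (adjusted p = 1.46e-06) and Sult1a1 held 17, 1.35, 9.58 and 1.89 TPM (adjusted p = 2.98e-06), both highest in replicate 1. Each of these 6 genes was higher after dexamethasone than in vehicle 72 h too (adjusted p of at most 0.000128). Vehicle held 2.15 ± 3.99 TPM of Fabp4, 0.568 ± 0.874 TPM of S100a8 and 0.925 ± 1.7 TPM of Serpinb2, most of it in vehicle replicate 1. Without that library the vehicle means were 0.157 ± 0.0135 TPM of Fabp4, 0.134 ± 0.138 TPM of S100a8 and 0.0742 ± 0.0303 TPM of Serpinb2 (SD, n = 3). Of 16 adipocyte markers 11 were tested and 8 rose (Cd36, a fatty acid transporter, 3.32-fold, adjusted p = 0.000437), and the list summed to 586 to 727 TPM, against 264 to 336 TPM at day 7. Adipoq, Plin1, Cidec and Retn, which define mature adipocytes, were under 1 TPM in each of these libraries.

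Zinc handling and transport genes rose as well. The lists share some members, such as Sult1a1 in the receptor target and transporter lists and Dmd in the neuromuscular junction and dystrophin lists. Mt2, a metallothionein that binds zinc, reached 6088, 6074, 7144 and 5098 TPM after dexamethasone, against 241, 623, 523 and 598 TPM at day 7, which is 12.3-fold higher (adjusted p = 5.57e-08). Its neighbour Mt1 was 4.3-fold higher (adjusted p = 6.8e-06). Slc39a14, a zinc importer, stood at 104, 106, 151 and 88.3 TPM, against 30.5, 26.5, 32.6 and 28.5 TPM at day 7 (3.81-fold, adjusted p = 2.39e-08). Slc30a1, which exports zinc, rose 2.27-fold (adjusted p = 2.28e-06), and 6.65 ± 0.897 TPM in vehicle was also called higher than day 7 (adjusted p = 0.0431, and up to 0.148 with 1 library left out). Of the 10 tested genes of this list 6 rose and 1 fell. Of 13 membrane transporters and sulfotransferases tested, 7 rose and 1 fell. Among them the myo-inositol carrier Slc5a3 rose 7.65-fold (adjusted p = 2.83e-07), and Slc10a6, which carries sulfated steroids, reached 3.39 to 7.84 TPM, against at most 0.115 TPM at day 7 (adjusted p = 6.32e-09). Acute phase and complement genes gave 10 rises and 5 falls among 19 tested. Over all genes tested, 23.8% rose and 23.9% fell. These lists were chosen with earlier results of these data known, so their counts are a description. Haptoglobin (Hp) held 80 TPM in replicate 1 but 1.17, 10.3 and 2.2 TPM in the other 3 treated libraries, against 0.0778 to 0.226 TPM at day 7 (adjusted p = 0.00132, and 0.00396 without replicate 1).

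The main ubiquitin ligases of muscle atrophy rose. Trim63, which encodes MuRF1, stood at 54.8, 101, 94.2 and 82.2 TPM after dexamethasone, against 17.7, 23.6, 28.6 and 23.8 TPM at day 7. Fbxo32, which encodes atrogin-1, stood at 55.3, 67.7, 80.4 and 55.9 TPM, against 15.5, 19.7, 21.6 and 18.8 TPM at day 7. Neither gene overlapped between the groups, as in 37% of all genes tested. Trim63 was 3.55-fold higher (log2 difference 1.23 ± 0.12 (SE), adjusted p = 6.19e-08) and Fbxo32 3.43-fold higher (1.16 ± 0.14, adjusted p = 1.58e-06). Part of this also occurred in vehicle, with 45.8 ± 7.08 TPM of Trim63 (adjusted p = 0.00234 against day 7) and 32.6 ± 9.48 TPM of Fbxo32 (adjusted p = 0.0395, but up to 0.166 when any of 5 single libraries was left out). Dexamethasone 72 h still stood above vehicle 72 h in both (adjusted p = 0.000275 and 0.000444). Asb2, a ligase subunit that lowers muscle mass in mice, showed the largest difference of the list, at 52.9, 52.4, 57 and 40 TPM, against 5.8, 6.91, 7.45 and 5.4 TPM at day 7 (7.91-fold, adjusted p = 8.58e-09). Asb2 also rose in vehicle, to 30.2 ± 8.5 TPM (adjusted p = 4.82e-05). Cblb, a ligase that targets IRS1, rose 2.81-fold (adjusted p = 6.07e-09), and its vehicle change did not pass (adjusted p = 0.0657). Of the 22 listed ligases and FoxO factors, 13 rose, with a median log2 difference of 0.29, against 6 rises in vehicle, or 3 without vehicle replicate 3. The direct difference from vehicle called 9 higher and 1 lower, but 5 higher without dexamethasone replicate 3 and 5 higher from TPM values. Foxo1 was not called against day 7, at 9.2, 8.27, 8.23 and 6.72 TPM, against 8.44, 7.3, 9.98 and 8.03 TPM at day 7 (adjusted p = 0.335). It was lower after dexamethasone than in vehicle (adjusted p = 0.0163, and up to 0.0723 with 1 library left out). Vehicle held 11 ± 1.68 TPM of Foxo1 without vehicle replicate 1 (SD, n = 3).

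Contractile genes rose as well. Of 15 myosin genes tested 10 rose and 2 fell. Of 38 genes of the thin filament, Z-disc and M-band 28 rose and 1 fell, and of 27 genes of excitation-contraction coupling 22 rose. Their median log2 differences were 0.81, 0.62 and 0.57. Acta1, skeletal muscle actin, stood at 5829.9, 7874, 8876 and 7752 TPM after dexamethasone, against 3036, 2770.2, 3299.8 and 2783 TPM at day 7 (2.55-fold, adjusted p = 5.11e-06). Myh1, an adult fast myosin, stood at 447, 553, 617 and 461 TPM, against 229, 157, 273 and 212 TPM at day 7 (2.39-fold, adjusted p = 1.49e-05). Perinatal myosin Myh8 rose 4.6-fold (adjusted p = 3.04e-07), and it rose in vehicle as well, to 116 ± 26.7 TPM (adjusted p = 0.00051). Its difference from vehicle had an adjusted p of 0.0497, which passed in 1 of 8 fits that left out 1 library (up to 0.166). The embryonic myosin Myh3 went the other way, at 86.9, 77.9, 70.9 and 71.7 TPM, against 219, 133, 231 and 176 TPM at day 7 (2.47-fold lower, adjusted p = 4.55e-06). No library of one group reached the range of the other in any of these 4 myosin and actin genes, as in 37% of all genes tested. Myh8 was named for the size of its difference.

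**Figure D2:**
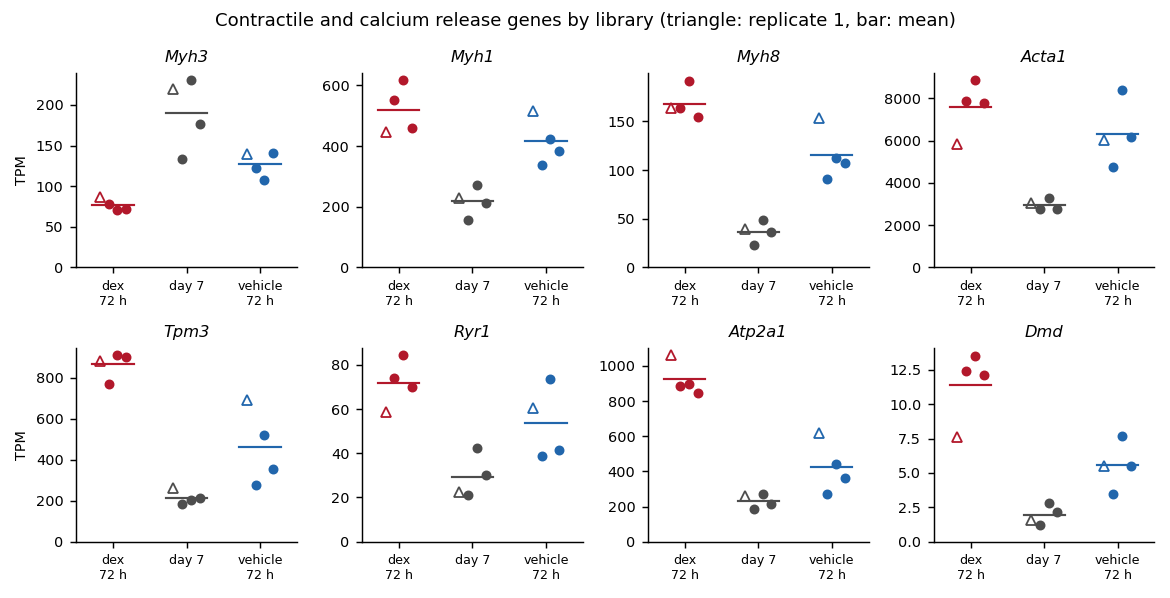
TPM on linear axes of 8 muscle genes in dexamethasone 72 h, day 7 and vehicle 72 h myotubes; points are libraries (triangles are replicate 1) and bars the means of 4. Acta1, Myh1, Myh8, Tpm3, Ryr1, Atp2a1 and Dmd lie higher after dexamethasone than at day 7 and Myh3 lies lower.

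The calcium and membrane genes of the myotube followed the contractile genes. Atp2a1, the fast-muscle calcium pump SERCA1, stood at 1061, 887, 898 and 846 TPM after dexamethasone, against 262, 187, 271 and 213 TPM at day 7 (3.96-fold, adjusted p = 5.37e-06). Ryr1, the calcium release channel, rose 2.47-fold (adjusted p = 3.06e-05), and Trdn, which anchors the release machinery, rose 5.43-fold (adjusted p = 4.82e-06). Dmd, dystrophin, stood at 7.64, 12.4, 13.5 and 12.1 TPM, against 1.58, 1.22, 2.84 and 2.14 TPM at day 7 (5.86-fold, adjusted p = 8.34e-08). Of its 13-gene complex 10 rose, and Dtna, the dystrobrevin that binds dystrophin, stood at 120.2 to 149 TPM, against 23 to 26 TPM at day 7 (5.5-fold, adjusted p = 1.97e-09). Tpm3, slow and non-muscle tropomyosin, rose 4.03-fold (adjusted p = 2.24e-06). Among 19 neuromuscular junction genes 10 rose and 6 fell, and Musk, the receptor that builds the synapse, rose 2.37-fold (adjusted p = 0.000117).

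Much of the muscle change also occurred in vehicle. Vehicle 72 h against day 7 called 7 of 15 myosin genes higher and 3 lower, 18 thin filament genes higher, 14 coupling genes higher and 8 genes of the dystrophin complex higher. Without vehicle replicate 3 those rises numbered 4, 8, 7 and 4. Among the named genes the vehicle change passed in Acta1 (adjusted p = 0.00165), Dmd (0.0015), Trdn (0.000964) and Myh1 (0.00442). It also passed in Ryr1 (adjusted p = 0.0123, and 0.064 without vehicle replicate 3), Myh3 (0.0156, and up to 0.0658 with 1 library left out), Tpm3 (0.0159, and up to 0.0635) and Musk (0.0389, and up to 0.178). It did not pass in Atp2a1 (adjusted p = 0.0674) or Dtna (0.0614). Set against dexamethasone, Acta1 averaged 6327 ± 1528 TPM in vehicle and its difference from vehicle did not pass (adjusted p = 0.193), nor did that of Myh1 (415 ± 75.3 TPM in vehicle, adjusted p = 0.134), Ryr1 (53.6 ± 16.4 TPM, adjusted p = 0.0682) or Trdn (39.9 ± 15.8 TPM, adjusted p = 0.36). Musk held 32.2 ± 11.1 TPM in vehicle, and its difference did not pass (adjusted p = 0.0569) but passed with the replicate number as a block (adjusted p = 0.0388). Dexamethasone 72 h was above vehicle in Atp2a1 (423 ± 149 TPM in vehicle, adjusted p = 0.000993), Tpm3 (461 ± 185 TPM, adjusted p = 0.00242), Dmd (5.55 ± 1.71 TPM, adjusted p = 0.0011) and Dtna (38.1 ± 9.51 TPM, adjusted p = 8.4e-08). It was below vehicle in Myh3 (128 ± 15.3 TPM in vehicle, adjusted p = 0.00601). Over the lists, the direct difference called 10 thin filament genes higher and 1 lower, and 8 coupling genes higher and 3 lower, but 5 higher in either list without vehicle replicate 2. Of all genes tested 15.2% were higher and 15.2% lower in the direct difference. With the replicate number as a block 16 thin filament genes were higher and 1 lower. Creatine kinase Ckm held 629.6 TPM in dexamethasone replicate 1 and 115, 145 and 189 TPM in the others, against 40.3 to 126 TPM at day 7. It was 3.99-fold higher (adjusted p = 0.033), or 2.21-fold without replicate 1, but was not called when any of 5 single libraries of the 8 was left out (adjusted p from 0.0508 to 0.142, the highest without dexamethasone replicate 1). Energy buffer genes of muscle, with 7 rises among 13, numbered 5 rises without it.

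Regulators of the myogenic programme split. MyoD and myogenin, the factors that commit and differentiate myoblasts, did not pass: Myod1 stood at 99.1, 140.4, 125 and 124 TPM after dexamethasone, against 125, 133, 137 and 116 TPM at day 7 (adjusted p = 0.258), and Myog at 768, 1561, 1043 and 1266 TPM, against 954, 1342, 1209.6 and 1109.8 TPM at day 7 (adjusted p = 0.572). The other 2 factors of the family rose. Myf6 (MRF4), the late factor of the family, stood at 22.4, 11, 13.5 and 16.2 TPM, against 0.998, 0.303, 0.31 and 0.774 TPM at day 7 (26.4-fold, adjusted p = 8.23e-06). Myf5, an early factor also found in quiescent satellite cells, stood at 69, 50.8, 75.1 and 64.4 TPM, against 20.7, 7.49, 9.74 and 8.72 TPM at day 7 (5.55-fold, adjusted p = 1.13e-06). Both stood above vehicle 72 h, which had 1.89 ± 2.22 TPM of Myf6 (adjusted p = 0.000151) and 10.8 ± 4.75 TPM of Myf5 (adjusted p = 1.14e-06). Without vehicle replicate 1, vehicle held 0.802 ± 0.613 TPM of Myf6 and 8.51 ± 1.68 TPM of Myf5 (SD, n = 3). Pax7, which marks satellite cells, ended lower, at 1.66, 0.754, 0.827 and 0.37 TPM, against 2.37, 2.47, 2.35 and 1.56 TPM at day 7 (2.42-fold lower, adjusted p = 0.000574), with replicate 1 above the lowest day 7 library. Satellite and reserve cell markers gave 3 rises and 7 falls among 14 tested, and their summed level was 1363 to 1554 TPM, against 1099 to 1356 TPM at day 7. Of the fusion proteins, myomaker (Mymk) rose 1.47-fold (adjusted p = 0.0039) and myomixer (Mymx) was 1.45-fold lower (adjusted p = 0.000284), and vehicle moved likewise in both (adjusted p = 0.01 and 0.00295).

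Of 18 Id and Notch genes tested, 9 fell and 3 rose. Their median log2 difference from the day 7 mean was 0.01, -0.44, -0.25 and -0.5 in treated replicates 1 to 4. Heyl, a Notch target, stood at 3.35, 0.655, 1.01 and 0.863 TPM after dexamethasone, against 9.34, 7.81, 8.22 and 7.29 TPM at day 7 (5.56-fold lower, adjusted p = 3.32e-06, and 9.69-fold without replicate 1), and the receptor Notch3 was 2.72-fold lower (adjusted p = 0.000728, and 4.28-fold without replicate 1). Hes1, a further Notch target, was 1.77-fold lower (adjusted p = 3.65e-07) and also fell in vehicle (adjusted p = 0.00784), and dexamethasone 72 h stood below vehicle (adjusted p = 0.000549). Id1, an inhibitor of myogenic factors, was 2.52-fold higher (adjusted p = 2.13e-05), and the ligand Jag2 was 3.13-fold higher (adjusted p = 1.6e-08). Jag2 rose in vehicle as well, to 8.29 ± 0.85 TPM (adjusted p = 0.00914), and stood higher after dexamethasone than there (adjusted p = 5.94e-06). Vehicle 72 h held 9.6 ± 1.5 TPM of Heyl, and dexamethasone differed from it (adjusted p = 3.95e-06).

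Cell cycle genes ended high in dexamethasone myotubes and low in vehicle myotubes. Of 28 DNA replication genes, 20 rose above day 7 and 1 fell after dexamethasone, with a median log2 difference of 0.52, whereas 18 fell in vehicle, with a median of -0.47. Dexamethasone 72 h stood above vehicle 72 h in 27 of the 28 (median 1.13). The list summed to 811, 1269, 682 and 949 TPM after dexamethasone, against 719.7, 507, 530 and 589 TPM at day 7, and to 363, 386, 297 and 382 TPM in vehicle. Replicate 1 at day 7 therefore reached into the treated range. The 25 mitosis and cytokinesis genes summed to 437, 878, 235 and 375 TPM after dexamethasone, against 594, 188, 235 and 327 TPM at day 7, and to 116, 93.7, 31.2 and 93.4 TPM in vehicle. The dexamethasone and day 7 libraries overlapped in this sum and vehicle lay below both. In limma, 0 of the 25 mitosis genes were called against day 7 in either table, and 0 had an unadjusted p under 0.05 in the normalised table, although the median log2 difference was 0.33. All 25 fell in vehicle and all 25 were higher after dexamethasone than in vehicle. Without vehicle replicate 3, 3 DNA replication genes and 14 mitosis genes were called lower in vehicle than at day 7.

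**Figure D3:**
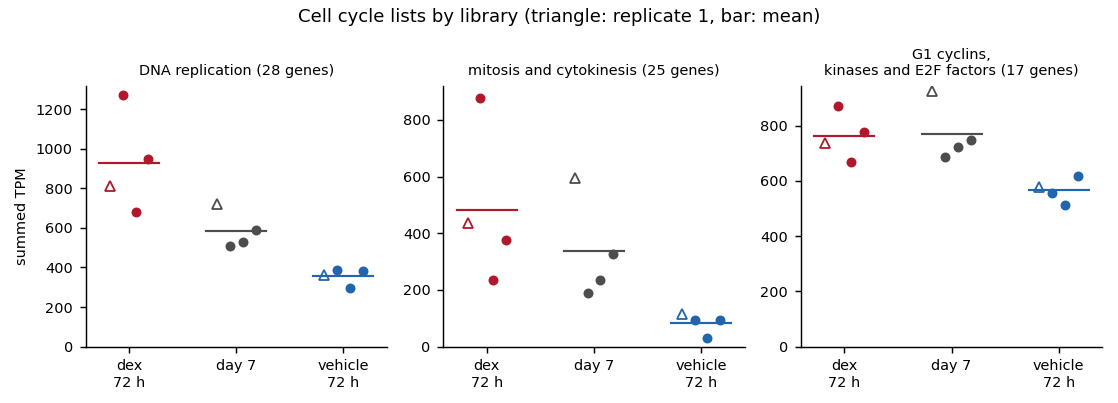
Summed TPM of the DNA replication (28 genes), mitosis and cytokinesis (25) and G1 (17) lists in dexamethasone 72 h, day 7 and vehicle 72 h myotubes; points are libraries (triangles are replicate 1) and bars the means of 4. The mitosis sum averages 481 TPM after dexamethasone, 336 TPM at day 7 and 83.6 TPM in vehicle.

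Promoter windows show how the lists differ in sequence. In RefSeq windows of 250 bases before to 50 after each start (build GRCm38.p6), 23 of the 28 DNA replication genes and 21 of the 25 mitosis genes had an entry. An E2F motif, TTTCCCGC or TTTGGCGC on either strand, was in 9 of the 23 DNA replication windows (39.1%) and 0 of the 21 mitosis windows, against 1.8% of the 27025 genes with a window. The CHR motif TTTGAA, on either strand, was in 3 of 23 (13.0%) and 16 of 21 (76.2%), against 20.2% of all genes. The glucocorticoid response element (GRE) motif ACANNNTGT, where N is any base, was in 3 of 24 receptor target windows (12.5%). It was also in 2 of 10 windows of the metallothionein and zinc list (20.0%), 1 of 23 DNA replication windows and 0 of 21 mitosis windows. Of all genes 7.9% had it. E2F factors are known to drive S-phase genes and CHR elements to bind the DREAM and MuvB complexes at G2 and M genes, and a match is a description and not a site. The 250 bases before the start are shown for a pair from each list, with matches to the motif of that list, or to its reverse complement, in capitals: Cdc6 (chr11:98907901-98908150, plus strand), which loads the replicative helicase, Mcm5 (chr8:75109259-75109508, plus strand), a subunit of that helicase, Cdk1 (chr10:69352913-69353162, minus strand), the kinase that starts mitosis, and Mki67 (chr7:135716380-135716629, minus strand), which encodes the proliferation marker Ki-67.
Cdc6: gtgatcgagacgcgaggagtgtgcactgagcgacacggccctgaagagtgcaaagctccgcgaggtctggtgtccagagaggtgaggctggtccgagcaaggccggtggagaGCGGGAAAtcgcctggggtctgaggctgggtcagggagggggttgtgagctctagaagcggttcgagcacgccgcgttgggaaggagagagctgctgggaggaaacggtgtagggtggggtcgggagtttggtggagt
Mcm5: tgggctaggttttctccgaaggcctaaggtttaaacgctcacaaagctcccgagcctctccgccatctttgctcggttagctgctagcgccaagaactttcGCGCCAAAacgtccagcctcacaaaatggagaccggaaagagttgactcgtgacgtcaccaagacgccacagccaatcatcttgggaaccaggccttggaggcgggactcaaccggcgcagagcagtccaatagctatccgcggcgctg
Cdk1: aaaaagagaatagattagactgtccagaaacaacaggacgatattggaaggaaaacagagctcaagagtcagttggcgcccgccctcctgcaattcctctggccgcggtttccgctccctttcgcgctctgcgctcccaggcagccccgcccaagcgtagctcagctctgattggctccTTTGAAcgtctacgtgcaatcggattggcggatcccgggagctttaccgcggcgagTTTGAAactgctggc
Mki67: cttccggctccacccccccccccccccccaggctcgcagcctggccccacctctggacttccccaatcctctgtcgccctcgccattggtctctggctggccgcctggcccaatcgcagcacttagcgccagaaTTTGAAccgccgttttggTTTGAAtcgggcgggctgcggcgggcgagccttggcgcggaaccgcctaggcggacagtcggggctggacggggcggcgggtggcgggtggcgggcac

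The same genes show the measured difference. Cdc6 stood at 5.17, 7.14, 2.88 and 5.8 TPM after dexamethasone, against 2.59, 0.477, 0.672 and 0.663 TPM at day 7 (4.78-fold, adjusted p = 0.000525). Mcm5 stood at 18.7, 30.3, 11.9 and 22.4 TPM, against 13.8, 3.31, 4.48 and 5.52 TPM at day 7 (3.07-fold, adjusted p = 0.00486), with replicate 1 at day 7 inside the treated range. Cdk1 stood at 78, 138, 39.5 and 65.9 TPM, against 86.4, 38.2, 38.3 and 57.6 TPM at day 7 (adjusted p = 0.372), and Mki67 overlapped likewise (adjusted p = 0.183). Vehicle held 0.453 ± 0.349 TPM of Cdc6, 2.06 ± 1.14 TPM of Mcm5, 15.7 ± 5.97 TPM of Cdk1 and 0.939 ± 0.651 TPM of Mki67. All 4 genes were higher after dexamethasone than in vehicle, with adjusted p of 1.56e-05 for Cdc6, 1.41e-05 for Mcm5, 8.95e-05 for Cdk1 and 0.000821 for Mki67. Myoblasts at day 0 held more of each than any myotube group, with 70.4 TPM of Mcm5 and 375 TPM of Cdk1.

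Cyclin D1 and the Hmga genes rose. Ccnd1, which encodes cyclin D1 and carries cells through G1, stood at 78.8, 119, 78 and 88 TPM after dexamethasone, against 25.9, 3.53, 6.29 and 9.03 TPM at day 7 (8.13-fold, log2 difference 2.34 ± 0.34 (SE), adjusted p = 1.18e-05), and vehicle held 8.85 ± 6.06 TPM. Hmga2, a chromatin protein of embryonic and proliferating cells, stood at 88.5, 198, 232 and 227 TPM, against 5.79, 2.38, 3.56 and 4.42 TPM at day 7 (46.2-fold, 3.7 ± 0.29, adjusted p = 7.13e-09), and vehicle held 7.91 ± 6.84 TPM. Without vehicle replicate 1, vehicle held 5.92 ± 1.9 TPM of Ccnd1 and 4.6 ± 2.16 TPM of Hmga2 (SD, n = 3). The treated libraries were all far above the day 7 ones in both genes, and Hmga2 was lowest in treated replicate 1. Its relative Hmga1 rose 12.7-fold (adjusted p = 2.56e-09), and H19, an imprinted noncoding RNA, reached 6982 to 7887 TPM, against 1265 to 2405 TPM at day 7 (4.1-fold, adjusted p = 7e-06). H19 was called higher in vehicle too, at 3893 ± 1451 TPM (adjusted p = 0.0255, and up to 0.0947 with 1 library left out), and dexamethasone 72 h stood above vehicle (adjusted p = 0.00488). Myc rose 2.12-fold (adjusted p = 6.75e-06). Of 16 G1 genes tested 7 rose and 2 fell, against 9 falls in vehicle, and 5 rose without dexamethasone replicate 1 or 4 or day 7 replicate 2 or 3. Vehicle falls in G1 numbered 5 from TPM values and 3 without day 7 replicate 1. The inhibitor Cdkn1a (p21), which holds myotubes out of the cycle, was not called, at 1435, 2827, 2322 and 2424 TPM, against 1868, 2244, 2553 and 2104 TPM at day 7 (adjusted p = 0.72). Cdkn1c (p57) was 2.32-fold lower (adjusted p = 0.000825) and Cdkn2c (p18) 1.95-fold lower (adjusted p = 5.65e-07). The vehicle change of Cdkn1c did not pass (adjusted p = 0.0557), nor did its difference from vehicle. Cdkn2c also fell in vehicle, to 31.7 ± 2.25 TPM (adjusted p = 0.000866), and the difference from vehicle (adjusted p = 0.0462) passed in 1 of 8 fits that left out 1 library (up to 0.159).

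Genes of the ERK pathway and of ribosome assembly rose beside them. Fosl1, the AP-1 subunit Fra-1 and a target of ERK, stood at 23.2, 35.2, 32.4 and 27.8 TPM after dexamethasone, against 5.25, 3.67, 4.82 and 3.72 TPM at day 7 (6.79-fold, adjusted p = 1.24e-08). Dusp6, the phosphatase that feeds back on ERK, was 3.72-fold higher (adjusted p = 5.49e-07), and Dusp5 (2.71-fold, adjusted p = 3.28e-07) and Spry4 (2.68-fold, adjusted p = 1.49e-05), also feedback inhibitors, rose too. The list gave 12 rises and 3 falls among 20 genes, 1 rise and 2 falls in vehicle, and 9 higher and 2 lower after dexamethasone than in vehicle. Egr1, an immediate early gene, was not called (adjusted p = 0.384). Of 20 ribosome biogenesis genes 14 rose, with a median log2 difference of 0.26, and 15 were above vehicle. Dkc1, which modifies ribosomal RNA, stood at 29.5, 37.8, 25 and 30.3 TPM, against 18.4, 16, 17 and 15.1 TPM at day 7 (1.85-fold, adjusted p = 1.12e-05).

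Matrix genes fell more often than they rose. Of 22 collagen chains tested 11 fell and 2 rose, of 37 matrix glycoproteins, proteoglycans and crosslinking enzymes 23 fell and 7 rose, and of 19 metalloproteinases and inhibitors 12 fell and 3 rose. Their median log2 differences were -1.01, -0.76 and -0.44. Col1a1, a chain of type I collagen, stood at 109, 6.93, 14.6 and 5.95 TPM after dexamethasone, against 501, 265, 386 and 277 TPM at day 7 (10.5-fold lower, adjusted p = 2.17e-06). Col3a1 stood at 867, 103, 273 and 110.2 TPM, against 1407, 1592, 2120.3 and 1578 TPM at day 7 (4.95-fold lower, adjusted p = 4.73e-06). Replicate 1 was the highest treated library in both chains and still lay below the day 7 range. Without it, Col1a1 was 39-fold lower and Col3a1 10.3-fold lower, and 13 collagen chains fell and 1 rose, with a median of -1.44. In the collagen list, the median log2 difference from the day 7 mean was -0.04, -1.68, -0.94 and -1.8 in treated replicates 1 to 4, so replicate 1 hardly differed from day 7 in the median chain. The matrix list without replicate 1 gave 26 falls and 7 rises.

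**Figure D4:**
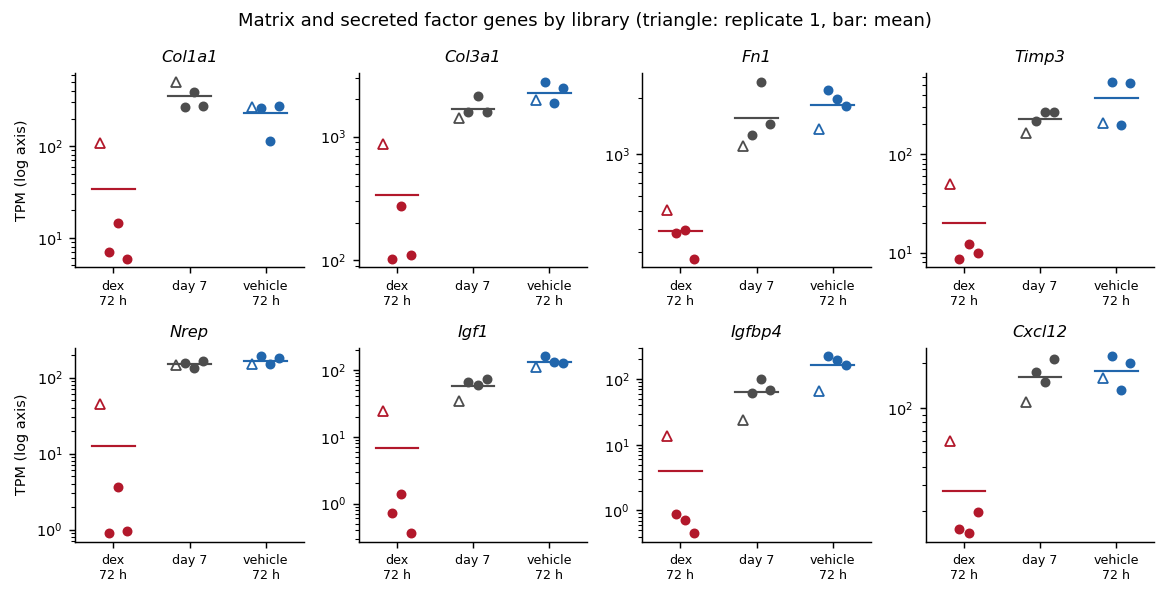
TPM on log axes of 8 matrix and secreted-factor genes in dexamethasone 72 h, day 7 and vehicle 72 h myotubes; points are libraries (triangles are replicate 1) and bars the means of 4. Treated replicate 1 is the highest treated library in all 8 genes, and each treated library lies below the day 7 libraries.

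Other matrix genes moved by comparable amounts. Fn1, fibronectin, stood at 505, 381, 393 and 278 TPM after dexamethasone, against 1111, 1262, 2429 and 1458 TPM at day 7 (4.02-fold lower, adjusted p = 7.59e-07). Timp3, an inhibitor of matrix proteases, stood at 49.4, 8.7, 12.1 and 10 TPM, against 162, 215, 265 and 267 TPM at day 7 (11.3-fold lower, adjusted p = 5.73e-07, and 22.1-fold lower without replicate 1). Has2, which makes hyaluronan, was 6.92-fold lower (adjusted p = 1.87e-06), the aggrecanase Adamts4 17.6-fold lower (adjusted p = 2.2e-08) and the membrane protease Mmp14 3.93-fold lower (adjusted p = 7.79e-07). Vehicle held 1840.2 ± 355 TPM of Fn1, 366 ± 191 TPM of Timp3 and 2266 ± 415 TPM of Col3a1, and none of these 3 vehicle changes passed (adjusted p of 0.629, 0.432 and 0.53). In vehicle the lists gave 1 rise and 1 fall among collagens, 4 rises and 1 fall in the matrix list and 1 rise among the metalloproteinases. The matrix list thus had 10.8% rises and 2.7% falls in vehicle, against 8.77% and 10.3% of all genes tested. After dexamethasone 13 collagens, 24 matrix genes and 12 metalloproteinase genes were lower than in vehicle, as were 15.2% of all genes tested. Not all matrix fell: Ccn2, a matricellular protein, stood at 439, 483, 609 and 469 TPM, against 107, 51.5, 54.5 and 55.4 TPM at day 7 (7.44-fold higher, adjusted p = 1.33e-08), and Lama2, the laminin chain of the muscle basement membrane, rose 5.09-fold (adjusted p = 1.97e-06). Both were called higher in vehicle too, Ccn2 at 161 ± 27.8 TPM (adjusted p = 0.00389) and Lama2 at 10.3 ± 3.3 TPM (adjusted p = 0.0272, and up to 0.109 with 1 library left out). Both stood higher after dexamethasone than in vehicle (adjusted p = 1.35e-05 for Ccn2 and 0.000937 for Lama2).

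Among markers of matrix-making cells, called falls outnumbered called rises, but the summed levels did not all fall. The part of these cells in the result was not tested. Of 13 fibroblast and tendon markers 10 were tested and 7 fell. The list summed to 3994 to 4227 TPM after dexamethasone, against 4906 to 5890.2 TPM at day 7, most of it S100a4, and to 2529 to 4189 TPM in vehicle. S100a4, picked out for its level after the values were seen, was 1.34-fold lower than at day 7 (adjusted p = 0.0414). It was not called when any of 7 single libraries of the 8 was left out (adjusted p from 0.0568 to 0.098), from TPM values (0.0572) or after quantile normalisation (0.109). It also fell in vehicle, to 3293 ± 749.6 TPM (adjusted p = 0.0124, and 0.0643 without vehicle replicate 3), and its difference from vehicle did not pass (adjusted p = 0.349). Pdgfrl was 4.4-fold lower (adjusted p = 2.37e-05, and 10.2-fold without replicate 1) and Cd248, a surface marker of fibroblasts, 4.41-fold lower (adjusted p = 3.62e-05, and 8.71-fold without replicate 1), while Pdgfra was not called (adjusted p = 0.207). Thy1, Tnmd, Mkx, Fap, Pi16 and Tcf21 were under 1 TPM in each of the 8 libraries. The fibroblast and tendon falls include Mkx, which was not called from TPM values (adjusted p = 0.1). Smooth muscle markers gave 6 falls and 2 rises among 11, and summed to 3115 to 3875 TPM, against 2645 to 3906 TPM at day 7. Acta2, smooth muscle actin, was 1.44-fold lower (adjusted p = 0.0238, and 0.0553 to 0.0933 when day 7 replicate 1 or 2 or dexamethasone replicate 2, 3 or 4 was left out), and Tagln, an actin-binding protein, 2.49-fold lower (adjusted p = 0.00824, and 6.16-fold without replicate 1). Of 14 osteoblast markers 10 were tested, and 6 fell and 1 rose, but 2 fell without day 7 replicate 2 and 3 from TPM values. Their sum, 3282 to 5012 TPM against 888 to 2148 TPM at day 7, was mostly Spp1, osteopontin, which rose 2.94-fold (adjusted p = 0.00183) and was likewise picked out after the values were seen. In vehicle the sum was 1952 to 3947 TPM. The vehicle change of Spp1 did not pass (adjusted p = 0.14). Its difference from vehicle did not pass either (adjusted p = 0.135), but passed with the replicate number as a block (adjusted p = 0.0345). Bglap, Sp7, Alpl, Ibsp, Phex, Dlx5, Msx2 and Sost were under 1 TPM in each of the 8 libraries. The osteoblast falls include Alpl, which was not called from TPM values (adjusted p = 0.0627).

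Igf1 and Igfbp4 fell together. Igf1, the anabolic growth factor, stood at 24.2, 0.716, 1.39 and 0.365 TPM after dexamethasone, against 34.3, 65.4, 59.8 and 72.8 TPM at day 7 (8.72-fold lower, adjusted p = 6.96e-06). Igfbp4, which binds and blocks IGFs, stood at 13.8, 0.876, 0.709 and 0.455 TPM, against 23.9, 62.6, 101 and 69.5 TPM at day 7 (16.3-fold lower, adjusted p = 6.87e-06). Without replicate 1, whose level lay between those of its companions and those of day 7, Igf1 was 70.4-fold and Igfbp4 94.6-fold lower. In vehicle Igf1 averaged 132 ± 20.5 TPM and Igfbp4 163 ± 69.1 TPM, and both were lower after dexamethasone than in vehicle (adjusted p = 7.11e-07 and 6.94e-07). Adamts16, a metalloproteinase, had the largest log2 fall of the named set, at -3.88 ± 0.39 (SE), with 3.4, 0.148, 0.17 and 0.101 TPM, against 18.3, 35, 48 and 32.1 TPM at day 7 (34.9-fold lower, adjusted p = 1.24e-07), and averaged 0.14 TPM without replicate 1. The chemokine Cxcl14 was 15.4-fold lower (adjusted p = 3.8e-06), at a treated mean of 3.84 TPM, or 0.424 TPM without replicate 1. Insc, a spindle orientation adaptor, was 24.2-fold lower (adjusted p = 7.57e-08, and 52.5-fold without replicate 1) and Nrep, a neuronal protein that also occurs in fibroblasts, 11.8-fold lower (adjusted p = 4.2e-07, and 80.9-fold without replicate 1). Cthrc1, a secreted collagen-repeat protein, was 15.3-fold lower (adjusted p = 0.0001), at a treated mean of 1.15 TPM, or 0.0962 TPM without replicate 1, but had also fallen in vehicle (adjusted p = 0.0115, and 0.0586 without vehicle replicate 3), and the direct difference did not pass (adjusted p = 0.199). Megf6 and Zbp1 complete the 8 largest log2 falls, with Igfbp4, Adamts16, Cxcl14, Insc, Nrep and Cthrc1: Megf6 held at most 0.312 TPM, against 1.72 to 8.17 TPM at day 7 (adjusted p = 1.13e-05), and Zbp1, a sensor of Z-form nucleic acid, at most 0.184 TPM, against 2.53 to 7.68 TPM at day 7 (adjusted p = 2.58e-07). Zbp1 was called lower in vehicle too, at 2.09 ± 1.16 TPM (adjusted p = 0.0247, and up to 0.0867 with 1 library left out), and dexamethasone 72 h stood below vehicle (adjusted p = 6.84e-05).

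Signalling lists of growth control were split. For the counts of this paragraph against day 7, the shares over all genes tested were 23.8% higher and 23.9% lower after dexamethasone. Among 27 insulin, IGF and mTOR genes 10 rose and 8 fell. Apart from Igf1 and Igfbp4, Igfbp2 was 7.77-fold lower (adjusted p = 1.14e-05), as in vehicle (adjusted p = 0.00194), with a difference from vehicle that did not pass (adjusted p = 0.28). Grb10, an adaptor that restrains insulin and IGF receptors, held 1.45 to 2.21 TPM, against 0.0636 to 0.223 TPM at day 7 (adjusted p = 8.63e-08) and 0.319 ± 0.195 TPM in vehicle (adjusted p = 0.0444 for vehicle against day 7, and up to 0.163 with 1 library left out). Among 26 myostatin, activin and TGF-beta genes 14 fell and 7 rose, against 2 falls and 9 rises in vehicle. Tgfb2, a TGF-beta ligand, stood at 20.6, 17, 14.2 and 14 TPM, against 43.4, 46.3, 55 and 48.1 TPM at day 7 (2.93-fold lower, adjusted p = 3.58e-07), its receptor Tgfbr2 was 3.11-fold lower (adjusted p = 8.01e-06) and Bmp4 4.01-fold lower (adjusted p = 8.67e-06, and 6.02-fold without replicate 1). Myostatin (Mstn), a brake on muscle mass, was near the floor, at 0.447, 0.0568, 0.0419 and 0.11 TPM, against 0.183, 0.0393, 0.0125 and 0.0627 TPM at day 7 (adjusted p = 0.495). Of 15 growth factor receptor kinases tested 5 rose and 3 fell, with Egfr 1.65-fold lower (adjusted p = 0.00283).

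Inflammatory genes fell more often than they rose. Of 27 chemokines, cytokines and myokines 13 fell and 6 rose, and of 23 interferon response and antigen presentation genes 12 fell and 2 rose. In vehicle the interferon list gave 2 falls (8.7%) and 1 rise (4.35%), against 10.3% and 8.77% of all genes tested. Cxcl12, a chemokine of mesenchymal cells, stood at 59.8, 15.2, 14.3 and 19.8 TPM after dexamethasone, against 109.6, 176, 149 and 213 TPM at day 7 (5.93-fold lower, adjusted p = 5.31e-07, and 9.85-fold without replicate 1). Ccl8 was 10.4-fold lower (adjusted p = 8.06e-06, and 17.1-fold without replicate 1) and Lif, an IL-6 family cytokine, 3.52-fold lower (adjusted p = 7.79e-07). Ccl2 was the exception among the monocyte chemokines named, at 10.5, 5.65, 4.76 and 5.16 TPM, against 3.11, 2.33, 1.56 and 2.8 TPM at day 7 (2.67-fold higher, adjusted p = 0.00187). The ubiquitin-like Isg15 stood at 2.8, 0.462, 0.502 and 0.439 TPM, against 9.27, 5.55, 5.19 and 6.29 TPM at day 7 (6.26-fold lower, adjusted p = 6.71e-06), with a treated mean of 1.05 TPM, or 0.467 TPM without replicate 1, and B2m, the light chain of MHC class I, was 1.46-fold lower (adjusted p = 0.000292).

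Ribosomal protein and sterol genes fell after dexamethasone, and some of them in vehicle. Of 32 cytosolic ribosomal proteins 24 fell after dexamethasone (median log2 difference -0.38) and 29 fell in vehicle (median -0.44), and 1 was called in the direct difference, higher. The counts rested on single libraries: 14 fell without dexamethasone replicate 3, and 7 fell in vehicle without vehicle replicate 3. Rpl5 stood at 43.3, 42.9, 40.9 and 50.4 TPM after dexamethasone, against 83, 108, 94.2 and 104 TPM at day 7 (2.19-fold lower, adjusted p = 4.7e-05), and at 48.5 ± 10.3 TPM in vehicle (adjusted p = 0.00158 against day 7). Such genes share reads with processed pseudogenes, so their levels are uncertain. Of 26 cholesterol and fatty acid synthesis genes 19 fell and 1 rose, against 9 falls in vehicle. Vehicle falls numbered 5 from TPM values and 1 without vehicle replicate 3. Cyp51, which demethylates lanosterol, stood at 58.9, 36.6, 34.1 and 30.6 TPM, against 102, 72.6, 87.8 and 90.4 TPM at day 7 (2.2-fold lower, adjusted p = 8.52e-05). The direct difference in this list called 2 higher and 3 lower, and 7 lower without dexamethasone replicate 1.

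Fuel and stress genes rose in part. Of 26 genes of glucose transport, glycolysis and glycogen 14 rose and 1 fell. Slc2a4, the insulin-responsive transporter GLUT4, stood at 8.76, 3.55, 6.02 and 5 TPM after dexamethasone, against 0.582, 0.484, 0.633 and 0.334 TPM at day 7 (11.5-fold, adjusted p = 4.81e-06). It also rose in vehicle, to 2.27 ± 1.59 TPM (adjusted p = 0.0144, and 0.0739 without vehicle replicate 3), and dexamethasone 72 h stood above vehicle (adjusted p = 0.00725). Slc2a1, GLUT1, rose 2.87-fold (adjusted p = 2.93e-06). Against vehicle 10 of the list were higher, and 6 without vehicle replicate 2. Pdk4, the kinase that shuts off pyruvate dehydrogenase and a known glucocorticoid target, stood at 145, 77.5, 109.9 and 70 TPM, against 27.8, 23.1, 28.4 and 24.7 TPM at day 7 (3.87-fold, adjusted p = 3.28e-06), in a list of 29 with 13 rises and 4 falls. The coactivator Ppargc1a held 1.39 to 1.85 TPM, against 0.251 to 0.496 TPM at day 7 (adjusted p = 1e-06) and 0.646 ± 0.266 TPM in vehicle (adjusted p = 0.0388 for vehicle against day 7, and up to 0.169 with 1 library left out). Of 20 Nrf2 and xenobiotic genes 14 rose and 1 fell, among them Gclm, a subunit of the enzyme that starts glutathione synthesis (2.99-fold, adjusted p = 2.78e-08), which was called higher in vehicle too, at 34 ± 4.79 TPM (adjusted p = 0.021, and up to 0.0672 with 1 library left out). Nqo1, a quinone reductase, was not called with 12.6, 53.5, 50.1 and 51.6 TPM, against 10.8, 19.4, 24.1 and 19.8 TPM at day 7 (adjusted p = 0.0617), and was called without replicate 1 (adjusted p = 0.00251). Nqo1 was higher after dexamethasone than in vehicle (adjusted p = 0.007). Of 16 heat shock genes 9 rose and 2 fell, and Hspb7, a small chaperone of striated muscle, stood at 209, 209, 329.6 and 268 TPM, against 21.2, 16.9, 24.4 and 23.1 TPM at day 7 (11.9-fold, adjusted p = 1.34e-08). Hspb7 also rose in vehicle, to 104 ± 47.6 TPM (adjusted p = 0.000502), and dexamethasone 72 h stood above vehicle (adjusted p = 0.000411).

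The counts of the remaining lists were as follows. Proteasome subunits gave 5 rises (15.6%) and 7 falls (21.9%) among 32, against 23.8% and 23.9% of all genes tested, with Psma1 not called (adjusted p = 0.828) and 4 falls in place of 7 without dexamethasone replicate 1. Autophagy and lysosome genes gave 6 rises (19.4%) and 7 falls (22.6%) among 31, with Map1lc3b not called (adjusted p = 0.339). Nuclear genes of oxidative phosphorylation gave 5 rises and 1 fall among 29, and 8 rises from TPM values. Their median log2 difference of -0.01 was 0.08 on the TPM scale, and that of the autophagy list, -0.06, was 0.01. CDK inhibitors and retinoblastoma genes gave 5 rises and 5 falls among 14, and 3 falls without day 7 replicate 1. The integrated stress response gave 4 rises and 2 falls among 20, with Ddit3 (CHOP) not called (adjusted p = 0.966). Endoplasmic reticulum chaperones gave 2 rises and 6 falls among 18, 3 falls from TPM values and 2 without day 7 replicate 1, with Hspa5 (BiP) not called (adjusted p = 0.744). YAP target and ankyrin repeat genes gave 2 rises and 3 falls among 13, proliferins and plasminogen genes 5 rises and 5 falls among 13, and Hmga, oncofetal and imprinted genes 5 rises and 2 falls among 12. Rises outnumbered falls in steroid receptor and steroid handling genes (6 rises and 0 falls among 14) and in glutamine and branched-chain amino acid genes (9 rises and 1 fall among 18). Clock genes gave 8 rises and 4 falls among 18 and myogenic regulators 7 rises and 5 falls among 21. Mitochondrially encoded genes gave 8 rises and 1 fall among 13, but 4 rises without dexamethasone replicate 3 and 5 without replicate 1.

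The end level was not the level reached after the first day of treatment in 4632 genes. Of the 28 receptor targets tested, 14 were lower at 72 h than at 24 h and 3 were higher. Over all genes tested, 14.2% were lower and 14.3% higher. Dexamethasone was sampled at 24 h and 72 h only, so a peak cannot be placed. Mt2 was lower at 72 h than at 24 h, when it averaged 13205 ± 2852 TPM (adjusted p = 0.00737), and Pdk4 was lower at 72 h than at 24 h, when it averaged 262 ± 81.7 TPM (adjusted p = 5.61e-05). Both were still above day 7 at 72 h. The difference between the times did not pass in Fkbp5, with 149 ± 32.4 TPM at 72 h and 175 ± 34.6 TPM at 24 h (adjusted p = 0.459). Cell cycle genes were high at 72 h and low at 24 h. Ccnd1 averaged 91 ± 19.3 TPM at 72 h and 3.87 ± 2.79 TPM at 24 h (adjusted p = 8.63e-07), and Mcm5 20.8 ± 7.69 TPM at 72 h and 1.27 ± 0.619 TPM at 24 h (adjusted p = 5.13e-06). Fosl1 behaved likewise, with 29.7 ± 5.28 TPM at 72 h and 3.49 ± 0.783 TPM at 24 h (adjusted p = 5.8e-09). Over the lists, 26 of 28 DNA replication genes, 25 of 25 mitosis genes and 12 of 16 G1 genes were higher at 72 h than at 24 h. Hmga2 averaged 187 ± 67.1 TPM at 72 h and 26.7 ± 9.12 TPM at 24 h (adjusted p = 2.42e-05). Postn, periostin, held 485, 53.4, 313 and 65 TPM at 72 h, against 391, 566, 605 and 564 TPM at day 7 (2.32-fold lower, adjusted p = 0.00227, and 3.7-fold without replicate 1), and at 24 h it had averaged 2029 ± 329 TPM (adjusted p = 1.95e-06 for 72 h against 24 h). Timp1, a protease inhibitor, stood at 820.3, 646, 702 and 545 TPM at 72 h, against 767, 773, 908 and 799 TPM at day 7 (adjusted p = 0.0705, and 0.0189 without replicate 1), and at 24 h it had averaged 188 ± 40 TPM (adjusted p = 2.33e-07 for 72 h against 24 h).

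**Figure D5:**
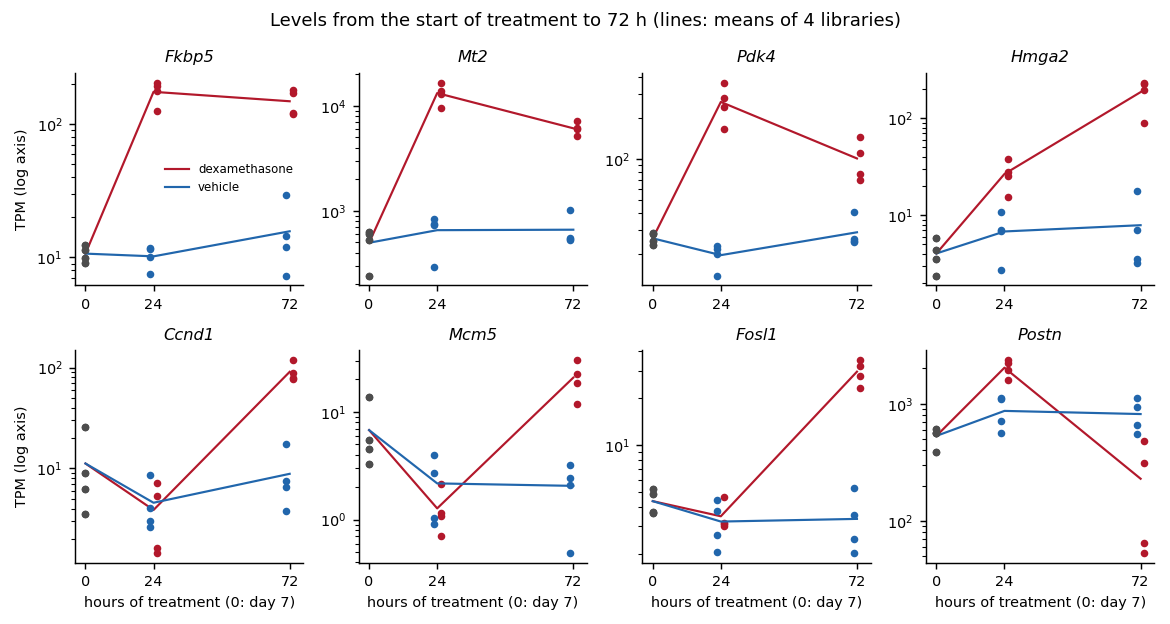
TPM on a log axis of 8 genes at the start (day 7), 24 h and 72 h in dexamethasone (red) and vehicle (blue) myotubes; points are libraries and lines join the means of 4. Fkbp5 stays high from 24 h, Mt2 and Pdk4 are lower at 72 h than at 24 h, and Ccnd1, Mcm5 and Fosl1 are high in dexamethasone at 72 h.

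Some genes were called in opposite directions over the same days in the 2 media. They were chosen for that pattern, which fixes the sign of their difference from vehicle, so it is given as a description with no test. Above day 7 after dexamethasone and below it in vehicle stood Exo1, an exonuclease of DNA repair (3.69-fold above day 7), Mcm5, Chaf1b, Uhrf1, Mybl2 and Plaur. Their log2 differences from vehicle were 3 in Exo1, 2.4 in Mybl2, 2.35 in Mcm5, 2.33 in Uhrf1, 2.19 in Chaf1b and 2.03 in Plaur. Plaur, the urokinase receptor, stood at 13.1, 26.2, 14.7 and 21.5 TPM, against 7.69, 4.91, 6.09 and 5.26 TPM at day 7 and 2.29 ± 0.754 TPM in vehicle. Below day 7 after dexamethasone and above it in vehicle stood Sfrp4, Fbln7, Ephb6, Sh3rf3, Tnfrsf25 and Itgb5, with log2 differences from vehicle of -2.88 in Sfrp4, -2.58 in Fbln7, -1.6 in Ephb6, -1.27 in Sh3rf3, -1.22 in Tnfrsf25 and -1.16 in Itgb5. Single libraries decided 3 of these calls against day 7. Chaf1b was not called without day 7 replicate 2 (adjusted p = 0.0507), Tnfrsf25 was not called without dexamethasone replicate 2 (adjusted p = 0.0874), and Fbln7, 1.64-fold lower or 5.5-fold without replicate 1, was called in 2 of the 8 comparisons that each left out 1 library. The vehicle change was lost in 6 of 8 such comparisons for Mybl2 (adjusted p = 0.0486, and up to 0.186), 5 for Uhrf1 (0.0491, and up to 0.19) and 4 for Tnfrsf25 (0.0242, and up to 0.0649). It was lost without vehicle replicate 3 or day 7 replicate 1 for Chaf1b (adjusted p = 0.0208, and up to 0.104) and Mcm5 (0.0191, and up to 0.0945), without vehicle replicate 3 for Exo1 (0.0128, and 0.0572) and without vehicle replicate 1 for Sfrp4 (0.0211, and 0.0703). Ephb6, an ephrin receptor, stood at 38.5, 13, 20.5 and 11.4 TPM, against 48.9, 43.5, 52.4 and 46.6 TPM at day 7 and 101 ± 24.2 TPM in vehicle. Sfrp4, a secreted Wnt antagonist, stood at 5.02, 0.233, 0.424 and 0.248 TPM, against 3.86, 4.66, 2.9 and 4.37 TPM at day 7 and 16.3 ± 8.89 TPM in vehicle, with replicate 1 above the day 7 libraries (adjusted p = 0.00257 against day 7, and 9.66e-07 without replicate 1). Without vehicle replicate 1, vehicle held 11.8 ± 0.923 TPM of Sfrp4 (SD, n = 3). Among genes not called against day 7, Pclaf, which binds PCNA, had the largest difference from vehicle. It stood at 29, 55.5, 8.57 and 26.1 TPM, against 40.1, 12.9, 12.1 and 20.3 TPM at day 7 (adjusted p = 0.716), and at 2.22 ± 1.3 TPM in vehicle, which was called lower than day 7 (adjusted p = 0.00318). Prl2c3, a proliferin whose reads may be shared with Prl2c2, was 5.41-fold higher than at day 7 with an adjusted p of 0.0779, and of 0.00463 without replicate 1.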

How the data were processed

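Libraries were made from polyadenylated RNA with a stranded kit, per the labels' protocols. The authors deposited a table of normalised values on a log2 scale and a table of TPM for 48544 gene IDs and 24 libraries in 6 groups of 4. Per the submitters' processing notes, Salmon, DESeq, kallisto 0.51.1 and the build GRCm39 were used, and the role of each is not given in the sources used here. The deposited log2 values run from -2.33 to 20.06 and look drawn toward each gene's mean, so their differences are smaller than those of log2 TPM. A table of linear normalised counts had been planned for, and the log2 scale was used as deposited. Deposited TPM sum to 1000000 in each library, so read depth is unknown and gives no counting interval.

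Tests used R 4.3.3 and limma 3.58.1 with a mean-variance trend, 1 mean per group and all 24 libraries, on the 16257 genes that reached a linear value of 10 in 4 or more libraries. Alternatives were the TPM table as log2(TPM + 0.1), for the 15250 genes at 0.5 TPM or more in 4 libraries, log2(TPM + 1), no filter, a linear minimum of 100, quantile normalisation, no trend, only the groups compared, the replicate number as a block, and each library left out. Deviations of same-numbered libraries from their group means correlated at 0.32, 0.12, 0.34 and 0.16 between dexamethasone 72 h and vehicle 72 h. They were highest for their own number in replicates 1, 3 and 4, in replicate 4 narrowly (0.16 against 0.14). Replicate 2 correlated more with another number (0.16 against 0.12). The numbers were taken to pair these groups, from the data and not from a label. The p-values of this difference come from the fit without the block unless the block is named. In the other comparisons the numbers were not taken as pairs. Symbols came from a RefSeq table by gene ID, for 48291 IDs, and promoter windows from RefSeq on GRCm38.p6. Those windows were used for sequence only.

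The members, gene lists and tests were chosen with earlier results of these data known, so the counts of list members called are a description. Named genes are anchors of each list, up to 4 called members of a list with the largest difference, the 8 largest rises and falls among called genes with at least 5 TPM and groups apart, and 6 genes in each of 3 sets: opposite changes in dexamethasone and vehicle, in either direction, and the largest differences from vehicle among genes not called against day 7. Cell type markers are named besides these where they were under 1 TPM.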

Additional observations from a re-analysis of the deposited data

Results flagged for a closer look

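Among 134 named genes with at least 1 TPM in a dexamethasone 72 h library and 120 in a day 7 library, 1 library of 4 lay far from the others (a gap above the critical value of Dixon's ratio) in 22 genes after dexamethasone and 8 at day 7. Chance gives about 1 in 20, and the genes are not independent. Dexamethasone replicate 1 was the high library in 20 genes and the low one in 1.

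Dexamethasone replicate 1 was high in matrix and mesenchymal genes, with 109 TPM of Col1a1, 49.4 TPM of Timp3, 4.32 TPM of Cthrc1, 3.4 TPM of Adamts16, 16.6 TPM of Fbln7, 6.55 TPM of Cd248, 60.7 TPM of Pdgfrl, 314 TPM of Tagln and 45.2 TPM of Nrep. The same library was high in secreted signals and their targets, with 24.2 TPM of Igf1, 13.8 TPM of Igfbp4, 59.8 TPM of Cxcl12, 14.1 TPM of Cxcl14, 10.5 TPM of Ccl2, 5.02 TPM of Sfrp4, 3.35 TPM of Heyl and 2.8 TPM of Isg15. It also held 2.92 TPM of Insc, 80 TPM of Hp and 629.6 TPM of Ckm, and was low in Nqo1 with 12.6 TPM. Dexamethasone replicate 3 was high in Zbtb16, with 3.74 TPM.

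Day 7 replicate 1 was high in the cell cycle genes Cdc6 (2.59 TPM) and Mybl2 (2.71 TPM), and in Ccn2 (107 TPM), Id1 (67.7 TPM) and Myf5 (20.7 TPM), and low in Insc (19 TPM). Day 7 replicate 3 was high in Mymk, with 888 TPM, and day 7 replicate 4 was low in Pax7, with 1.56 TPM. Why these libraries lay apart was not tested.

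The change from day 7 differed between dexamethasone and vehicle, with opposite called directions, in 12 named genes, chosen for that pattern, so their values are a description. The log2 difference of dexamethasone 72 h from vehicle 72 h was 3 in Exo1, 2.4 in Mybl2, 2.35 in Mcm5, 2.33 in Uhrf1, 2.19 in Chaf1b and 2.03 in Plaur, and it was -2.88 in Sfrp4, -2.58 in Fbln7, -1.6 in Ephb6, -1.27 in Sh3rf3, -1.22 in Tnfrsf25 and -1.16 in Itgb5.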

How the results depend on the processing

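The count of genes called between dexamethasone 72 h and day 7 was within 1.5 times its value of 7761 under each alternative, in each direction as well, and ranged from 6608 to 7882 when 1 library was left out. From TPM values it was 3935 higher and 2912 lower. The vehicle change was less stable: it called 987 genes lower in place of 1678 from TPM values with either pseudocount, and when 1 library was left out it called 1207 to 3245 genes, of which 590 to 1431 were higher and 617 to 1814 lower. The direct difference from vehicle ranged from 3892 to 5472 genes, and that from 24 h of dexamethasone from 3350 to 5347. The replicate number as a block gave 8215 genes against day 7, 3630 for vehicle against day 7, 5433 for dexamethasone against vehicle and 5177 for 72 h against 24 h. Same-numbered deviations of dexamethasone 72 h and day 7 correlated at 0.21, -0.06, 0.31 and 0.07 in replicates 1 to 4, and were highest for their own number in replicates 1 and 3 only, so the numbers were not taken as pairs. There the block called Nqo1 (adjusted p = 0.000704) and Prl2c3 (0.043) and lost S100a4 (0.0509). Between dexamethasone and vehicle at 72 h, where the numbers were taken as pairs, it changed the calls of Musk and Spp1 and no other call given. It moved the thin filament count, and no other count given, by over 1.5 times. Of 2391 values of 141 named genes against day 7 under the alternatives, 2322 stayed on their side of the threshold, 57 were no longer called, 12 became called and 0 changed direction while called. The cause of these shifts was not tested. Groups of 4 libraries, unknown depth and TPM near 0 limit what low genes can show.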
